A study of Mus musculus with 12 samples.

Results

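The response to myocardial infarction in wild-type mouse hearts was measured by setting the 3 heart samples with the subgroup label MI against the 3 with the label WT. They were chosen by that label alone and make 6 of the 12 samples of the series. The other 6 come from mice carrying a transgene for the long non-coding RNA CCRR, 3 of them infarcted, and enter here through the shared estimate of the spread, the choice of 1 probe for each gene and the filter on dim genes. Total RNA of each heart was measured on 1 single-colour (Cy3) Agilent array.

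Both groups are of the strain C57/BL6, carry no transgene as far as the labels say, and were kept with light and dark alternating every 12 hours and normal food and water; the tissue was taken fresh. The sources used here do not say whether WT mice had a sham operation, and infarction and any surgery cannot be told apart. The time between infarction and sampling, the part of the heart taken, the age of the mice and whether each sample is a separate animal are likewise not given. P-values therefore cover the spread among the arrays at hand, which could be technical. The titles of MI 2 and MI 3 begin differently from that of MI 1, and the subgroup label was taken as their group. All 6 arrays lay on the same slide, WT 1 to 3 and MI 1 in its first row and MI 2 and MI 3 in its second.

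An infarct begins when a coronary artery is blocked and the muscle behind it dies. Dying cardiomyocytes release signals that resident cells read through pattern-recognition receptors. Neutrophils and then monocytes enter from the blood, clear debris and give way to matrix-building fibroblasts, while the surviving muscle works under load and is known to shift its fuel use and its electrical properties.

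Levels are log2 of the deposited Cy3 signal minus the 75th percentile of the same array, so 0 is a gene at that percentile. A difference is the MI mean minus the WT mean on this scale, n = 3 against 3, with limma's standard error after ±. A gene was called when its Benjamini-Hochberg adjusted p from limma, over all 19761 genes tested, was below 0.05. Where no array of a group was well above background for a gene, only a bound is given, as "at least N-fold". In bulk heart tissue, fewer cells of a type and less RNA per cell cannot be told apart.

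Of the 19761 genes tested, 47.9% were called, 18.6% higher (3674 genes) and 29.3% lower (5790 genes) after infarction. These shares are the background for every gene list, and so is the median difference over all genes, -0.14. The lists were drawn up by textbook function or cell type, with earlier results of these data known. List counts are over tested members only, and a gene that is tested only because it is high after infarction had to differ. The groups did not overlap for 63.7% of genes. Over single probes, 46.2% of 29870 were called. Large changes went mostly upward: 274 called genes were higher by at least 3 on the log2 scale and 23 lower by as much, of which 115 and 8 were not well above background in the dimmer group, so that their size is not exact. Of all called genes, 205 were not well above background on any WT array and above it on every MI array, and 300 the other way round.

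**Figure D1:**
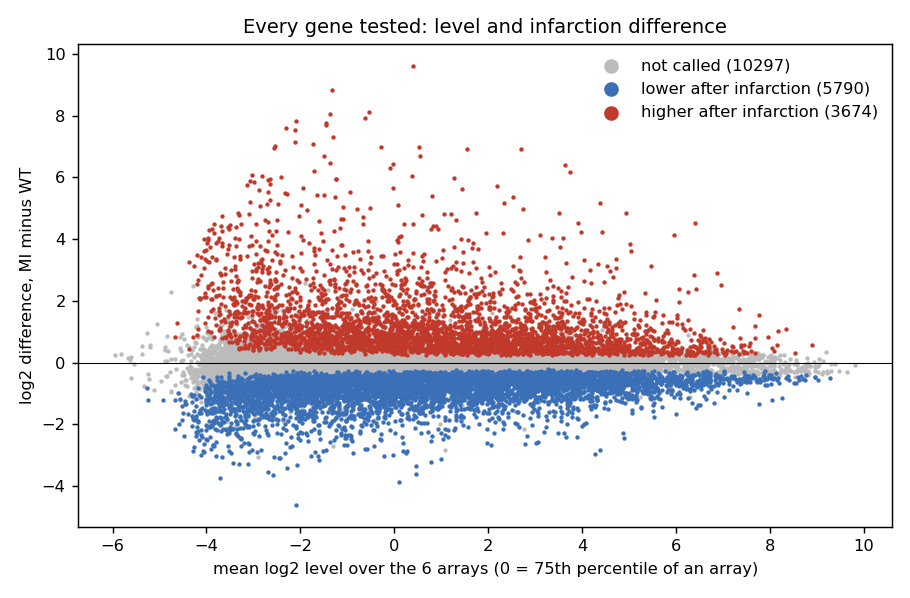
Each point is 1 of the 19761 genes tested, placed by its mean log2 level over the 6 arrays (x axis) and its log2 difference, MI minus WT (y axis). Red points are the 3674 genes called higher, blue points the 5790 called lower and grey points those not called; the red cloud reaches much farther from 0 than the blue.

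**Figure D2:**
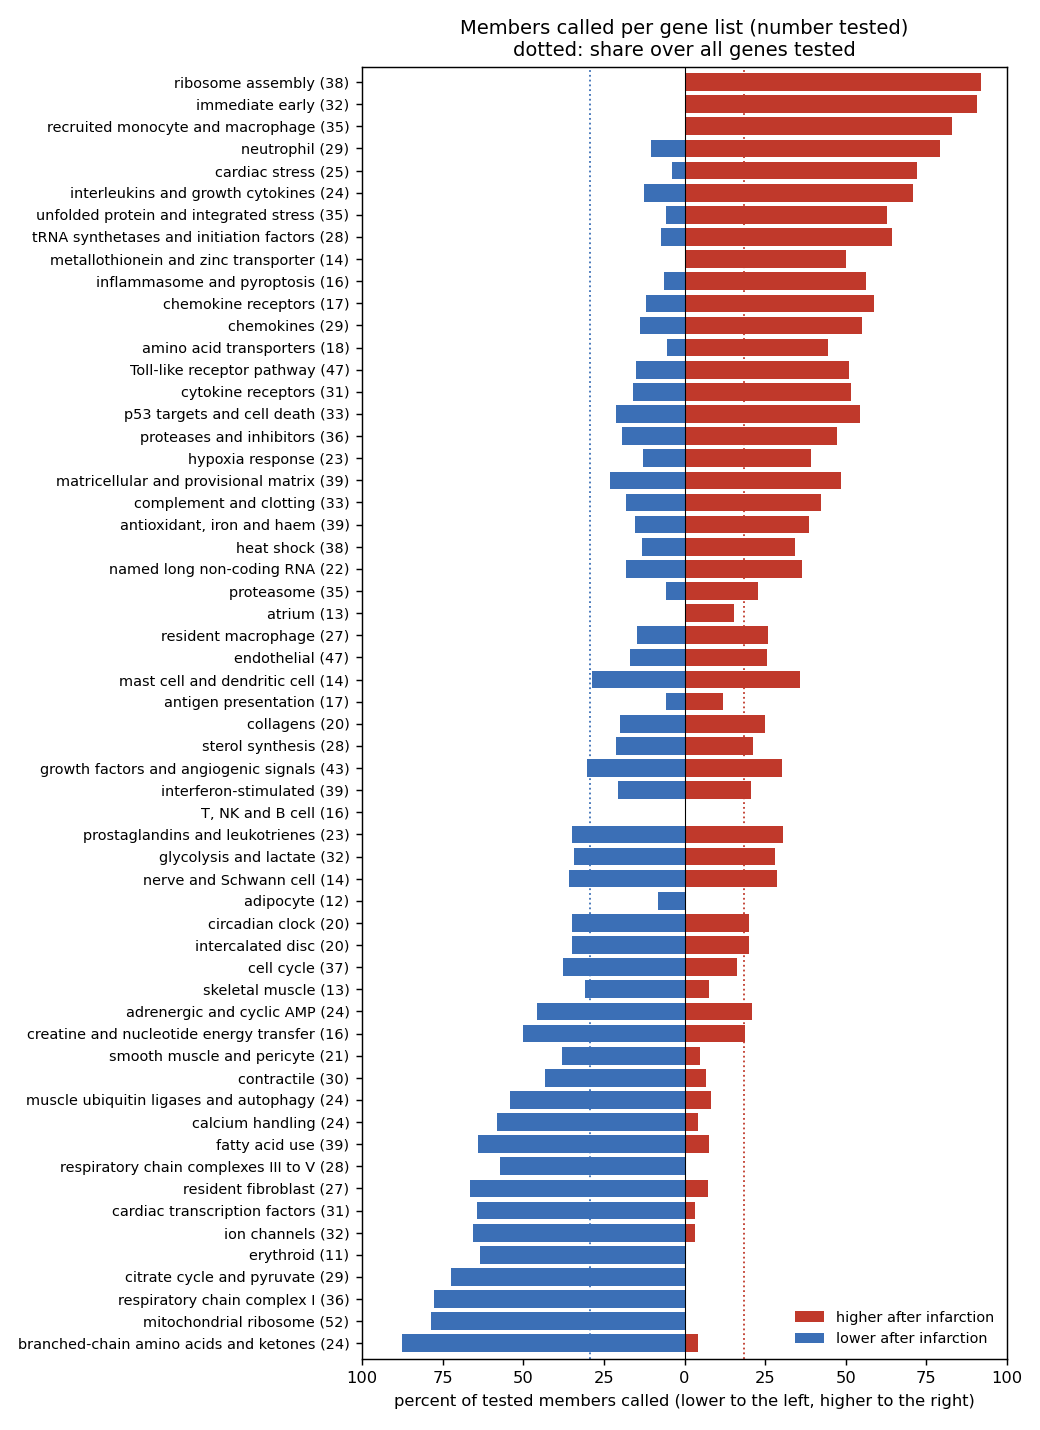
Each row is a gene list with its number of tested genes in brackets. Red bars to the right give the percent of tested genes called higher after infarction and blue bars to the left the percent called lower, with vertical lines at the shares over all genes, 18.6% and 29.3%; ribosome assembly, immediate early and recruited macrophage genes lie at one end and mitochondrial genes at the other.

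The labelled tissue was checked against heart muscle genes. All 30 genes of the contractile list, among them Tnnt2, Ttn and Mybpc3, were well above background on all 6 arrays. Their summed signal, in units of each array's 75th percentile, lay between 6200 and 7530 on the WT arrays and between 4810 and 6320 on the MI arrays. The 75th percentile of the raw signal lay between 137.8 and 225.3, and between 48.65% and 53.72% of probes were well above background.

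The 3 MI arrays were not alike in how far they lay from the WT arrays. Whether the hearts, the tissue taken or the arrays differed was not tested. On the first principal component, which held 79.7% of the variance over the 6 arrays, WT 1 to 3 lay at -64.8, -66.9 and -66.3, and MI 1 to 3 at 96.8, 57.8 and 43.5. MI 1 was the array farthest from the WT mean for 75.1% of the called genes, MI 2 for 14.1% and MI 3 for 10.8%. Over the genes called higher, the median deviation from WT was 1.04 on MI 1, 0.80 on MI 2 and 0.72 on MI 3. The median SD of a gene was 0.113 among WT arrays and 0.2 among MI arrays. MI 1 is also the infarcted sample that shared the slide row of the WT arrays: with slide and row fitted as a block, which sets MI 1 alone against WT within that row, 8232 genes were called, of which 7410 were also called without the block.

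**Figure D3:**
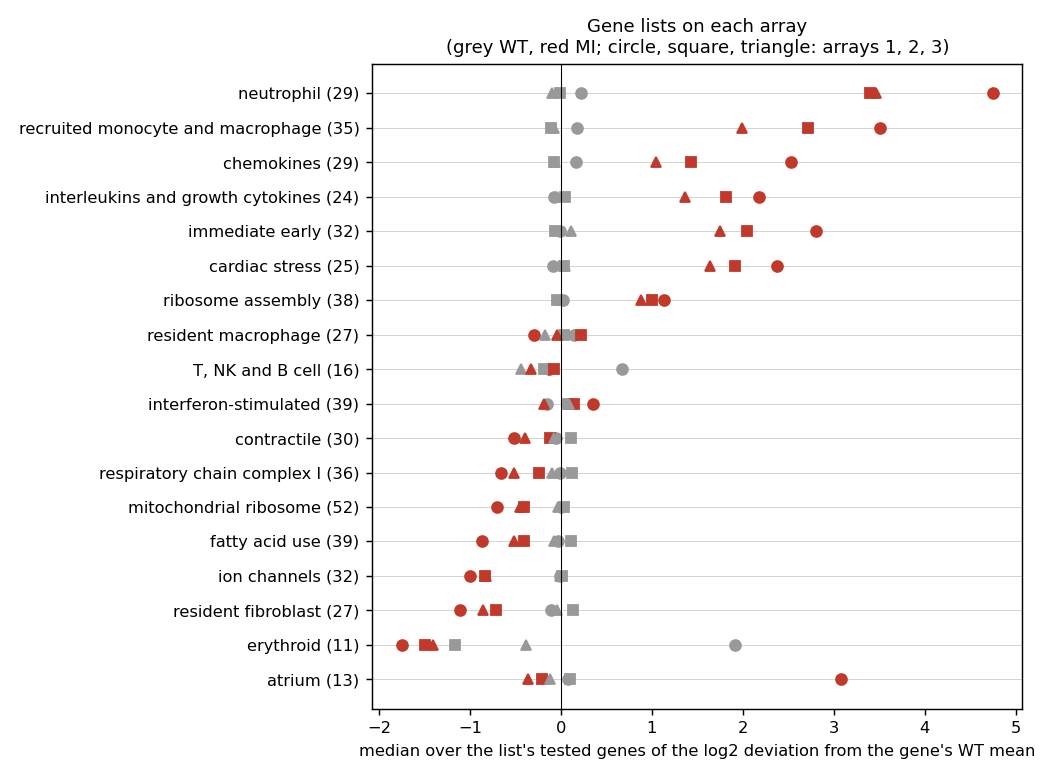
Each row is a gene list with its number of tested genes, and each symbol is an array: grey for WT, red for MI, with a circle, square and triangle for arrays 1, 2 and 3. The x axis is the median over the list of the log2 deviation from each gene's WT mean; MI 1 lies farthest out for most lists, and for the atrial list it stands alone at 3.08.

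The earliest transcriptional layer of the response was strongly raised. Immediate early genes encode transcription factors and phosphatases that are switched on within minutes by growth factor, calcium or stress signals, and 29 of 32 tested were higher and 0 lower, with a median difference of 2.23. Fos, a subunit of the AP-1 transcription factor, read -2.59, -2.33 and -2.5 on WT 1 to 3 and 3.48, 2.51 and 1.89 on MI 1 to 3, and rose by 5.1 ± 0.74 (adjusted p = 0.000576). The groups stood far apart, with MI 1 highest and MI 3 lowest. On mm9, the build of the array files, the probe for Fos lies at chr12:86818118-86818177, that for Mt2 at chr8:96697371-96697430 and that for Hspa1a at chr17:35106766-35106825; the files do not say which exon a probe lies in. Fosl1, of the same family as Fos, was not well above background on any WT array and read 0.99, -0.19 and -0.85 on MI 1 to 3, a rise of at least 13.7-fold (adjusted p = 0.000248). Atf3, a stress-induced repressor of the ATF family, read -2.24, -2.23 and -1.66 on WT 1 to 3 and 3.52, 2.21 and 1.62 on MI 1 to 3, a difference of 4.49 ± 0.57 (adjusted p = 0.000315), in the same order of arrays as Fos. Myc, the growth-promoting transcription factor, read -1.99, -1.09 and -2.16 on WT 1 to 3 and 2.44, 1.55 and 1.36 on MI 1 to 3 and rose by 3.53 ± 0.35 (adjusted p = 0.00011). Egr2 and Egr3, zinc finger factors, rose by 3.58 and 2.74, the latter with 1 of 3 WT arrays above background. Jund, the AP-1 member least dependent on stimulation, rose by 0.47, the smallest called change of the list.

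Heat shock genes moved in both directions, but fewer fell than over all genes. 13 of 38 tested were higher (34.2%) and 5 lower (13.2%), against 18.6% and 29.3% over all genes. The median was 0.16, against -0.14 over all genes. The number lower ranged from 3 to 8 over the settings tried. The largest rises were in the stress-inducible HSP70 pair. Hspa1a read -0.5, -0.25 and 0.01 on WT 1 to 3 and 6.65, 5.58 and 2.55 on MI 1 to 3, and Hspa1b read -1.89, -1.93 and -1.88 on WT 1 to 3 and 5.09, 4.13 and 1.32 on MI 1 to 3. All MI arrays were above all WT arrays, but MI 3 lay far below MI 1 and MI 2 for each gene, so that the rises of 5.17 ± 0.91 (adjusted p = 0.00142) and 5.41 ± 0.82 (adjusted p = 0.000676) carry large errors. The genes lie next to each other and are near-identical, and the array probes may read RNA of either. Hsp90aa1, the inducible HSP90, rose by 1.9 ± 0.23 (adjusted p = 0.00025) and Dnajb1, an HSP40 partner of HSP70, by 1.36 ± 0.21 (adjusted p = 0.00076). Among the 5 lower genes, Hspd1, the HSP60 of mitochondria, fell by 0.46 on the log2 scale (adjusted p = 0.00975) and Fkbp4, an HSP90 co-chaperone, by 0.97 (adjusted p = 0.00217).

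Metallothioneins bind zinc and copper and are induced by metals, glucocorticoids and oxidants. Mt2 read 4.56, 4.02 and 3.89 on WT 1 to 3 and 8.79, 8.84 and 8.36 on MI 1 to 3 and rose by 4.51 ± 0.24 (adjusted p = 8.44e-06). Its neighbour Mt1 read 7.17, 6.94 and 6.92 on WT 1 to 3 and 8.61, 8.75 and 8.26 on MI 1 to 3 and rose by 1.53 ± 0.17 (adjusted p = 0.000177). The MI arrays lay close together for these genes, with MI 3 lowest. Of the whole list of metallothioneins and zinc transporters, 7 of 14 were higher and 0 lower (background 18.6% and 29.3%); the importer Slc39a14 rose by 1.25.

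The promoters of these genes are shown because each holds letters of a site bound by a stress-responsive factor. They are the 250 bases before the annotated start, 5′ to 3′ on the gene's strand, from RefSeq on GRCm38.p6. Capitals mark GAANNTTC, a short form of the heat shock element, in Hspa1a (chr17:34972157-34972406, minus strand) and Hspa1b (chr17:34959239-34959488, minus strand). They mark TGACGT, the core of the cyclic AMP response element, in Fos (chr12:85473640-85473889, plus strand) and Atf3 (chr1:191183334-191183583, minus strand). For the metal response element core, which has the forms TGCGCNC and TGCACNC, they mark TGCACNC in Mt1 (chr8:94178839-94179088, plus strand). In Mt2 (chr8:94172368-94172617, plus strand) they mark both forms.
Hspa1a: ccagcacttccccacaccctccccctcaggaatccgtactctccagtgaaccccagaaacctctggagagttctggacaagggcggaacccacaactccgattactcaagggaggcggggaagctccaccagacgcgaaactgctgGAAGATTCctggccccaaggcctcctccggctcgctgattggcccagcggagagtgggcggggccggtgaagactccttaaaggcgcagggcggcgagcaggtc
Hspa1b: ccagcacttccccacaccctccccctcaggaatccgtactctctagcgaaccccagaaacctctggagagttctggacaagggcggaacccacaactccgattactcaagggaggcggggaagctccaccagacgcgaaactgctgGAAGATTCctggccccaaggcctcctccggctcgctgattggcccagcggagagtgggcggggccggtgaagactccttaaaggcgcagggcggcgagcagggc
Fos: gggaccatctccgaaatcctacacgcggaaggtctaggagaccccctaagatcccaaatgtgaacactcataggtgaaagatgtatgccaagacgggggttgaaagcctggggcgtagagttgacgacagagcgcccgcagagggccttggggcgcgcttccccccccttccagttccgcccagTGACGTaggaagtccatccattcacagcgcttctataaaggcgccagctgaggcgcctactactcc
Atf3: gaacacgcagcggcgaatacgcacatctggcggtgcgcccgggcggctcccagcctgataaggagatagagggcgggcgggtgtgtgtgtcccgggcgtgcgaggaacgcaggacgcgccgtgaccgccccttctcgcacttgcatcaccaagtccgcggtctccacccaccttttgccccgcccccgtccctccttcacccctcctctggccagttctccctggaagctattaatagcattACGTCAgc
Mt1: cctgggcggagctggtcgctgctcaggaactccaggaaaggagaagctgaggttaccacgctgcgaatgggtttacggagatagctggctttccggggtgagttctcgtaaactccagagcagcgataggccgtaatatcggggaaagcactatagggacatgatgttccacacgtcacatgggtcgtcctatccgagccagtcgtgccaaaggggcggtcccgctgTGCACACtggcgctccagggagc
Mt2: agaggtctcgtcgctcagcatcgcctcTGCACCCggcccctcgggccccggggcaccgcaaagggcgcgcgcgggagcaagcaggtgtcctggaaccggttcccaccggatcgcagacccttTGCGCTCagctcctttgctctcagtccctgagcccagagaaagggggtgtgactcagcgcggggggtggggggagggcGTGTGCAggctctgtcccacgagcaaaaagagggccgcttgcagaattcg

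The promoters of Hspa1a and Hspa1b share 247 of 250 bases, with the heat shock element starting 104 bases before the start in each. The cyclic AMP core starts 66 bases before the start of Fos and 8 before that of Atf3. In the 250 bases searched Mt1 holds 1 metal response core, TGCACNC 23 bases before its annotated start. Bases beyond that start were not searched. Mt2 holds 3 metal response cores, TGCACNC at 223 and 50 bases before its start and TGCGCNC at 128. The match in Atf3 and the one nearest the start in Mt2 are on the opposite strand, so their capitals are the reverse complement. Each motif was searched on both strands in the 250 bases before the first listed start of 27025 genes, where 6.78% hold GAANNTTC, 6.56% TGACGT, 12.6% TGCGCNC, 10.2% TGCACNC and 21.3% at least 1 of the last pair. Of the 32 tested heat shock genes with a promoter in the table, 7 (21.9%) hold GAANNTTC; 4 of those 7 were called higher, and 11 of all 32. Of 24 immediate early genes, 7 (29.2%) hold TGACGT; 5 of those 7 were called higher, and 22 of all 24. Motifs not tied to these lists occur in them too: TGCGCNC is held by 8 of the 32 and 6 of the 24 promoters. The E-box CACGTG, held by 6.05% of all promoters, is in 3 of the 32 (9.38%) and 5 of the 24 (20.8%). A match is a description of these letters and does not show that a factor binds there.

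**Figure D4:**
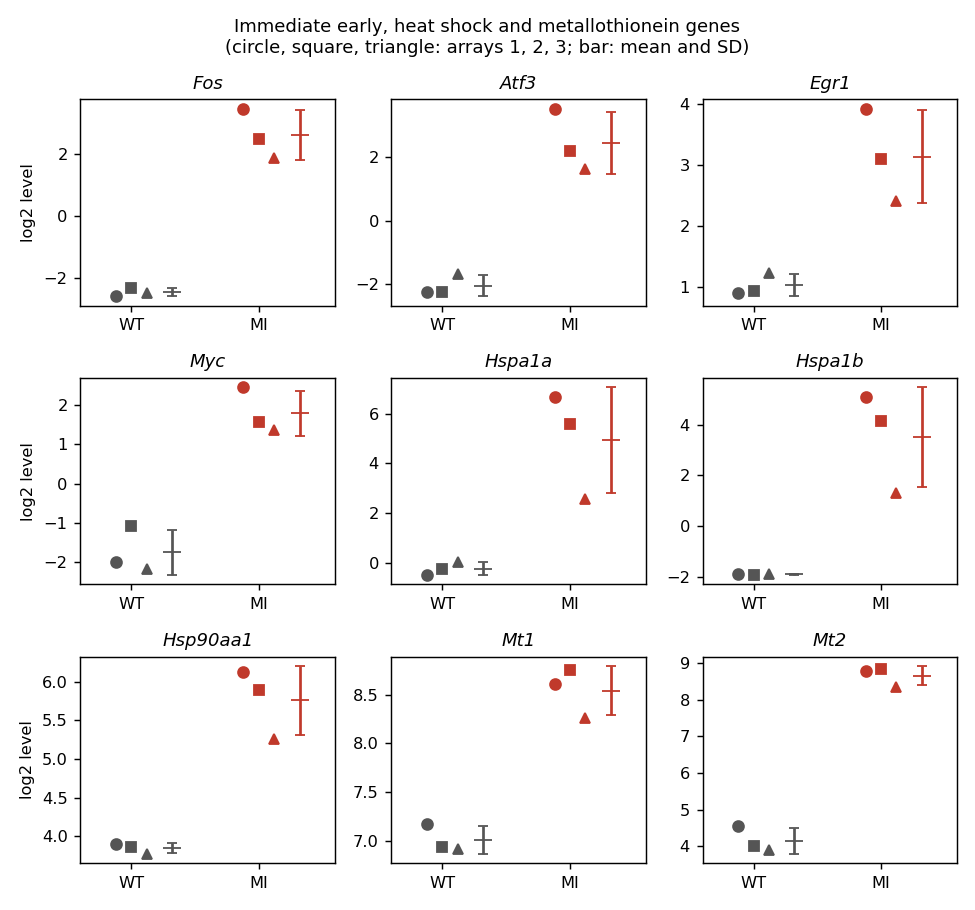
Log2 level (y axis) of 9 immediate early, heat shock and metallothionein genes in the WT (grey) and MI (red) hearts; circles, squares and triangles are arrays 1, 2 and 3, and the bar gives the mean and SD of each group. No MI array overlaps the WT arrays for any of the 9, and MI 3 is the lowest MI array in each.

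Many genes for signals that recruit leukocytes rose. Of 29 chemokine genes tested, 16 were higher and 4 lower, with a median of 1.52. Among those above background on all 6 arrays, 11 were higher and 4 lower, with a median of 0.58. Ccl4, a chemokine of activated macrophages, read -3.16, -2.86 and -3.04 on WT 1 to 3 and 2.26, 0.86 and 2.82 on MI 1 to 3 and rose by 5.0 ± 0.59 (adjusted p = 0.000244); here MI 3 was highest and MI 2 lowest. Ccl7, which draws monocytes through CCR2, read 0.06, -0.4 and -0.11 on WT 1 to 3 and 4.35, 4.14 and 3.7 on MI 1 to 3 and rose by 4.21 ± 0.36 (adjusted p = 6.11e-05), the 3 infarcted hearts lying within 1 log2 unit of each other. Among ligands of the neutrophil receptor CXCR2, Cxcl1 rose by 4.32 ± 0.53 (adjusted p = 0.00027), and Cxcl3 was not well above background on any WT array and rose at least 38.1-fold (adjusted p = 6.43e-05). Among those that fell, Ccl21a, which guides lymphocytes and dendritic cells into lymphatic vessels and nodes, read 1.98, 2.53 and 2.16 on WT 1 to 3 and -0.95, 1.38 and -0.3 on MI 1 to 3 and fell by 2.18 (adjusted p = 0.00526), with MI 2 closest to the WT arrays.

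Of 17 genes for receptors of chemokines and other leukocyte attractants, 10 were higher and 2 lower. Among those above background on all 6 arrays, 7 were higher and 1 lower. Cxcr2 was not well above background in any WT heart and rose at least 26-fold (adjusted p = 1.82e-05), and Fpr1, the receptor of bacterial and mitochondrial formyl peptides, rose at least 16-fold (adjusted p = 0.000104). Ltb4r1, the high-affinity receptor of leukotriene B4, rose by 4.96 ± 0.64 (adjusted p = 0.000351), being above background in 2 of 3 WT hearts. Ackr4, a scavenger of the CCL19 and CCL21 chemokines, read -0.2, -0.27 and 0.15 on WT 1 to 3 and -4.23, -2.27 and -2.89 on MI 1 to 3 and fell by 3.02 (adjusted p = 0.00065), with 2 of 3 MI arrays above background.

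Cytokines of the interleukin 6 and interleukin 1 families led the next group. Of 24 interleukins and growth cytokines tested, 17 were higher and 3 lower (median 2.01, or 1.53 with genes not above background in a group set at their bound). Among genes above background on all 6 arrays 8 were higher and 3 lower, with a median of 0.59. Osm and Il11, both ligands that signal through the shared subunit gp130, were not well above background in any WT heart and rose at least 29.1-fold (adjusted p = 0.000102) and at least 25.4-fold (adjusted p = 0.000343). MI 1 was highest for each, at 2.43 for Osm and 1.99 for Il11. Il1rn, the natural antagonist of interleukin 1, rose at least 43.6-fold (adjusted p = 6.43e-05) and was highest on MI 3. Il1r2, the decoy receptor of interleukin 1, read 3.67, 2.04 and 1.47 on MI 1 to 3 and rose at least 73.1-fold (adjusted p = 3.98e-05). Socs3, the feedback inhibitor of gp130 signalling, read 0.48, 0.06 and 0.09 on WT 1 to 3 and 4.78, 4.36 and 4.09 on MI 1 to 3 and rose by 4.2 ± 0.28 (adjusted p = 2.39e-05), with little spread in either group. Csf2rb, the common beta chain of the GM-CSF and interleukin 3 receptors, rose by 4.41 ± 0.38 (adjusted p = 6.12e-05).

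Not every cytokine gene was higher. Il15, a survival factor of natural killer and memory T cells that heart muscle also makes, read 4.26, 4.29 and 3.91 on WT 1 to 3 and 2.39, 3.25 and 3.24 on MI 1 to 3 and fell by 1.20 (adjusted p = 0.00146). Lifr, the receptor subunit for leukaemia inhibitory factor, fell by 1.07 (adjusted p = 0.00164) while Osmr, the corresponding subunit for oncostatin M, rose by 2.07. Over cytokine receptors and their signal transducers, 16 of 31 were higher and 5 lower.

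Pattern recognition by Toll-like receptors moved in parts. 24 of 47 genes were higher and 7 lower, with a median of 0.44. Tlr5, the flagellin receptor, was not well above background in any WT heart and rose at least 8.84-fold (adjusted p = 0.00198), with MI 3 lowest of the infarcted hearts at -2.03. Tlr13, which senses bacterial ribosomal RNA, rose by 2.48 ± 0.34 (adjusted p = 0.000433). Nfkbiz and Nfkbia, regulators of NF-kappa-B that are themselves its targets, rose by 2.38 and 1.62. Sigirr, a receptor-like brake on this pathway, read 0.33, 0.49 and 0.58 on WT 1 to 3 and -0.8, -0.37 and -0.46 on MI 1 to 3 and fell by 1.01 (adjusted p = 0.00119). In the inflammasome list, 9 of 16 were higher (5 without MI 1) and 1 lower. Mefv, which encodes the inflammasome sensor pyrin, rose at least 51-fold (adjusted p = 0.000204), and Casp4, the caspase that senses bacterial lipopolysaccharide inside cells, rose by 1.14 ± 0.21 (adjusted p = 0.00158).

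Interferon-stimulated genes did not move as a block. Of 39 tested, 8 were higher and 8 lower, 20.5% each way, and the median was 0.13. The number higher was 5 without WT 1 or without MI 1 and 14 without MI 3, and the number lower was 5 without MI 2; with slide and row as a block they were 13 and 2. Ifitm1, a membrane protein that restricts virus entry, read -0.29, -0.43 and 0.13 on WT 1 to 3 and 3.46, 2.48 and 2.55 on MI 1 to 3 and rose by 3.03 ± 0.26 (adjusted p = 6.11e-05). Antigen presentation stayed mostly uncalled, with 2 of 17 higher and 1 lower; the costimulatory genes Cd80 and Cd86 rose by 1.16 and 1.11.

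Markers of neutrophils held some of the largest rises of the comparison. 23 of 29 tested were higher and 3 lower, with a median of 3.88 (2.93 at the bounds). Among genes above background on all 6 arrays 8 were higher and 2 lower, with a median of 2.02. Of the 36 list members on the array, 15 were above background on all WT arrays and 28 on all MI arrays. Ctsg and Prtn3 were not above background on any of the 6 arrays. The 3 lower genes each fell by at least 1 log2 unit, and the lowest difference was -1.84, for Camp. Clec4e, a receptor for mycobacterial and dead-cell ligands, was not well above background in any WT heart and read 1.75, 0.81 and 1.94 on MI 1 to 3, a rise of at least 39.3-fold (adjusted p = 3.26e-05). Acod1, the itaconate-making enzyme of activated myeloid cells, rose at least 48.3-fold (adjusted p = 9.66e-05). The list's summed signal was between 155 and 172 on the WT arrays, 752 on MI 1 and 528 on MI 2, and slightly lower than that on MI 3. Padi4, the citrullinating enzyme behind neutrophil extracellular traps, rose by 2.02 ± 0.23 (adjusted p = 0.000212).

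Genes of recruited monocytes and macrophages were higher in 29 of 35 cases and lower in 0, with a median of 2.63. Per array the median deviation from WT was 3.51, 2.72 and 1.99 on MI 1 to 3. Chil3, a chitinase-like secreted protein, read -0.87, -2.25 and -2.64 on WT 1 to 3 and 6.04, 5.22 and 3.78 on MI 1 to 3 and rose by 6.93 ± 0.88 (adjusted p = 0.000325). Adam8, a membrane protease of migrating leukocytes, read -1.43, -1.91 and -1.82 on WT 1 to 3 and 5.03, 4.05 and 3.7 on MI 1 to 3 and rose by 5.98 ± 0.43 (adjusted p = 3.17e-05). The phagocytic receptor Msr1 rose by 3.68 ± 0.52 (adjusted p = 0.000485), being above background in 2 of 3 WT hearts, and the Fc receptor genes Fcgr1, Fcgr3 and Fcgr4 by 2.75, 2.32 and 2.63.

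Resident macrophage markers showed no such shift: 7 of 27 were higher (4 without WT 2 or without MI 2, 3 with slide and row as a block) and 4 lower, with a median of -0.06, which changed sign without WT 1 or without MI 1. Pf4, platelet factor 4, which these macrophages also make, rose by 1.42 ± 0.31 (adjusted p = 0.0039), while Selenop, a secreted selenium carrier, fell by 0.91 ± 0.17 (adjusted p = 0.0019). Retnla, a secreted product of alternatively activated macrophages, read 2.09, 2.27 and 2.05 on WT 1 to 3 and -1.58, -0.45 and -1.59 on MI 1 to 3 and fell by 3.35 ± 0.39 (adjusted p = 0.000239). The WT arrays lay close together, and MI 1 and MI 3 lay below MI 2. Of 16 tested markers of T, NK and B cells 0 were called by limma in either direction, and 1 had an unadjusted p below 0.05; 13 of the 30 on the array were above background on all WT arrays and 13 on all MI arrays.

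Resident cells of the heart wall moved separately. Fibroblast markers were lower in 18 of 27 cases and higher in 2, with a median of -0.96, and their summed signal was between 584 and 684 on the WT arrays and between 345 and 429 on the MI arrays. Islr, a secreted leucine-rich repeat protein of mesenchymal cells, read 1.92, 2.29 and 1.92 on WT 1 to 3 and -1.29, -0.18 and -0.01 on MI 1 to 3 and fell by 2.53 ± 0.35 (adjusted p = 0.000477). Scara5, a ferritin receptor of fibroblasts in connective tissue, read -0.09, 0.18 and -0.2 on WT 1 to 3 and -3.02, -1.95 and -2.39 on MI 1 to 3 and fell by 2.42 ± 0.34 (adjusted p = 0.000485). The WT arrays were well above the MI arrays for both, and MI 1 was lowest. Tcf21, a transcription factor of the fibroblast lineage, fell by 1.1 ± 0.2 (adjusted p = 0.00182), while Pdgfra, the receptor that marks the same cells, differed by 0.43 and was not called.

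Endothelial markers showed no common direction, with 12 of 47 higher, 8 lower and a median of 0.0. These shares are 25.5% and 17%, against 18.6% and 29.3% over all genes. The number higher was 7 without WT 2, without MI 1 or without MI 2. Of the adhesion molecules that catch leukocytes from the blood, Selp, P-selectin, read -3.53, -3.75 and -3.68 on WT 1 to 3 and 2.42, 0.66 and -1.48 on MI 1 to 3 and rose by 4.19 ± 0.77 (adjusted p = 0.00172), being above background in 1 of 3 WT hearts, and its MI values ran over several log2 units. Icam1, a ligand of leukocyte integrins, rose by 1.49 ± 0.22 (adjusted p = 0.000616), and Sele, E-selectin, not well above background in any WT heart, rose at least 3.25-fold (adjusted p = 0.000485). Vcam1, another integrin ligand, differed by 0.2 and was not called. The apelin pair went in opposite directions. The ligand Apln read 1.65, 1.49 and 1.66 on WT 1 to 3 and 3.19, 2.25 and 4.38 on MI 1 to 3 and rose by 1.68 ± 0.45 (adjusted p = 0.0113), whereas its receptor Aplnr read 0.62, 0.69 and 0.69 on WT 1 to 3 and -1.42, -1.25 and -1.54 on MI 1 to 3 and fell by 2.07 ± 0.52 (adjusted p = 0.00825); both calls were lost with slide and row as a block. Kdr, the main VEGF receptor of endothelium, fell by 0.99 ± 0.17 (adjusted p = 0.00139).

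Markers of mural cells, the smooth muscle and pericytes of vessels, were lower in 8 of 21 cases and higher in 1. Rgs5, a G protein regulator of pericytes, read 4.26, 4.46 and 4.33 on WT 1 to 3 and 2.56, 3.18 and 3.27 on MI 1 to 3 and fell by 1.34 ± 0.21 (adjusted p = 0.000788). The summed signal of this list was between 261 and 288 on the WT arrays and between 190 and 206 on the MI arrays. Epicardial and mesothelial genes were higher in 5 of 9 tested and lower in 1, Aldh1a1, at -1.87, with a median of 0.82. Among those above background on all 6 arrays, 3 were higher and 1 lower, with a median of 0.4. Aldh1a2, which makes retinoic acid in activated epicardium, read 0.2, -0.49 and 0.14 on WT 1 to 3 and 3.88, 3.57 and 3.41 on MI 1 to 3 and rose by 3.67 ± 0.33 (adjusted p = 6.69e-05), and Krt18, a keratin of simple epithelia, rose by 3.65 ± 0.74 (adjusted p = 0.00281). Upk3b, Lrrn4, Bnc1 and Krt7, further mesothelial markers, were not above background on any of the 6 arrays.

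Clotting and fibrinolysis genes held some of the largest rises. 14 of 33 complement and clotting genes were higher and 6 lower. F10, clotting factor X, was not well above background in any WT heart, read 3.54, 2.49 and 1.92 on MI 1 to 3 and rose at least 87.4-fold (adjusted p = 5.7e-05), one of the largest bounds of the comparison. Plaur, the urokinase receptor, read -1.62, -2.17 and -1.67 on WT 1 to 3 and 3.72, 2.63 and 2.54 on MI 1 to 3 and rose by 4.79 ± 0.36 (adjusted p = 3.26e-05). The initiator of clotting went down instead: F3, tissue factor, read 2.5, 2.56 and 2.73 on WT 1 to 3 and 1.31, 1.32 and 1.76 on MI 1 to 3 and fell by 1.13 ± 0.14 (adjusted p = 0.000325). The complement gene C7, of the membrane attack complex, fell by 1.73 ± 0.26 (adjusted p = 0.000673).

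Lipid mediator genes were called in both directions. Of 23 genes, 7 were higher (30.4%) and 8 lower (34.8%), against 18.6% and 29.3% over all genes. The list's median of -0.21 changed sign with the mean of a gene's probes, without the filter on dim genes and with slide and row as a block. Ptgs2, the inducible cyclooxygenase, rose at least 16.6-fold (adjusted p = 0.000263) from below background in every WT heart. Alox5ap, which hands arachidonic acid to 5-lipoxygenase, rose by 2.38 ± 0.3 (adjusted p = 0.000294). Hpgd, which inactivates prostaglandins, read -0.65, -0.64 and -1.11 on WT 1 to 3 and -1.89, -2.35 and -2.3 on MI 1 to 3 and fell by 1.38 ± 0.22 (adjusted p = 0.000821), and Pla2g5, a secreted phospholipase, fell by 1.61 ± 0.24 (adjusted p = 0.000683).

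Genes of the matrix moved both ways. Of 20 collagen genes 5 were higher (3 without WT 1, 10 when only the 6 arrays entered the fit) and 4 lower. These shares are 25% and 20%, against 18.6% and 29.3% over all genes. Col1a1, of the main fibrillar collagen, differed by 0.03 and was not called. Of 39 matricellular and provisional matrix genes 19 were higher and 9 lower. Ptx3, the pentraxin of early wound matrix, and Has1, a hyaluronan synthase, were below background in every WT heart and rose at least 12.6-fold (adjusted p = 0.000253) and at least 13.3-fold (adjusted p = 6.43e-05). Thbs4, a thrombospondin of stressed muscle and tendon, read 0.21, 0.47 and 1.02 on WT 1 to 3 and 3.86, 2.53 and 3.12 on MI 1 to 3 and rose by 2.6 ± 0.39 (adjusted p = 0.00067). Its relative Comp, the cartilage oligomeric matrix protein, read -0.87, -0.99 and -0.08 on WT 1 to 3 and -3.46, -2.76 and -2.14 on MI 1 to 3 and fell by 2.14 ± 0.43 (adjusted p = 0.00287). Ogn, the small proteoglycan mimecan, fell by 2.06 ± 0.21 (adjusted p = 0.000122).

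Among 36 matrix proteases and their inhibitors, 17 were higher and 7 lower. Timp1, an inhibitor of metalloproteinases, read 1.2, 0.29 and 0.46 on WT 1 to 3 and 7.13, 6.91 and 6.45 on MI 1 to 3 and rose by 6.18 ± 0.5 (adjusted p = 4.74e-05). Adamts4, a protease that cuts versican and aggrecan, read -0.58, -0.66 and -0.81 on WT 1 to 3 and 6.12, 5.32 and 3.7 on MI 1 to 3 and rose by 5.73 ± 0.46 (adjusted p = 4.34e-05). Every MI array lay above every WT array by several log2 units for these genes. Timp2, an inhibitor of the same family as Timp1, read 5.63, 5.88 and 5.71 on WT 1 to 3 and 4.24, 4.73 and 4.72 on MI 1 to 3 and fell by 1.18 ± 0.19 (adjusted p = 0.000916), and the membrane-bound protease Mmp15 fell by 1.86 ± 0.21 (adjusted p = 0.000213).

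Genes of the integrated stress response, which ATF4 directs, were raised. 22 of 35 genes of the unfolded protein and integrated stress list were higher and 2 lower. Atf4 itself rose by 1.37 ± 0.25 (adjusted p = 0.00159). Psat1, of serine synthesis, read -1.06, -1.16 and -1.25 on WT 1 to 3 and 2.3, 1.63 and 1.91 on MI 1 to 3 and rose by 3.1 ± 0.34 (adjusted p = 0.000169), and Asns, asparagine synthetase, rose by 2.41 ± 0.32 (adjusted p = 0.000367). Vldlr, a lipoprotein receptor under the control of the same response, read 6.06, 6.21 and 6.01 on WT 1 to 3 and 4.57, 5.07 and 5.23 on MI 1 to 3 and fell by 1.14 ± 0.18 (adjusted p = 0.000819).

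Of 39 antioxidant, iron and haem genes, 15 were higher and 6 lower. Hp, haptoglobin, which binds free haemoglobin, read -0.78, -0.77 and -1.49 on WT 1 to 3 and 3.98, 3.52 and 3.35 on MI 1 to 3 and rose by 4.63 ± 0.8 (adjusted p = 0.00127). Txnrd1 and Gclm, targets of the oxidant-sensing factor NRF2, rose by 1.76 and 0.99, while another such target, Nqo1, differed by -0.3 and was not called. Tfrc, the transferrin receptor that brings iron into cells, read 1.52, 1.65 and 1.13 on WT 1 to 3 and 0.24, 0.2 and -0.39 on MI 1 to 3 and fell by 1.41 ± 0.2 (adjusted p = 0.000471).

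Of 33 genes of cell death and of the p53 response, 18 were higher and 7 lower (4 without WT 1 or without MI 1). Cdkn1a, the cyclin-dependent kinase inhibitor p21, read -0.18, -0.44 and -0.31 on WT 1 to 3 and 3.56, 2.77 and 2.15 on MI 1 to 3 and rose by 3.13 ± 0.5 (adjusted p = 0.00086). Ripk3, the kinase that starts necroptosis, read -0.3, -0.4 and -0.26 on WT 1 to 3 and 2.27, 1.41 and 1.5 on MI 1 to 3 and rose by 2.05 ± 0.22 (adjusted p = 0.000169), and its substrate Mlkl rose by 1.28 ± 0.14 (adjusted p = 0.000174). Not all p53 targets went up: Ccng1, cyclin G1, fell by 0.99 ± 0.17 (adjusted p = 0.00119).

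The machinery that builds cytosolic ribosomes was raised almost as a whole. 35 of 38 nucleolar and ribosome assembly genes were higher and 0 lower, with a median of 0.98, and the median deviation per array was 1.13, 1.0 and 0.88 on MI 1 to 3. Ddx21, a nucleolar RNA helicase, read 0.37, 0.13 and 0.21 on WT 1 to 3 and 2.94, 2.65 and 2.48 on MI 1 to 3 and rose by 2.45 ± 0.18 (adjusted p = 3.17e-05). Nolc1, a chaperone of small nucleolar ribonucleoproteins, rose by 1.72 ± 0.14 (adjusted p = 5.27e-05), and Fbl, the RNA methylase fibrillarin, by 0.99 ± 0.12 (adjusted p = 0.000254). The changes were moderate in size with little spread among arrays. Initiation factors and tRNA synthetases were higher in 18 of 28 cases and lower in 2; Eif6, which keeps the large ribosomal subunit apart, rose by 1.38 ± 0.17 (adjusted p = 0.000257), while the cap-binding Eif4e fell by 0.58 ± 0.13 (adjusted p = 0.00522). Slc38a2, a neutral amino acid transporter, rose by 1.33 ± 0.2 (adjusted p = 0.000659) and its relative Slc38a3 fell by 1.47 ± 0.33 (adjusted p = 0.00463).

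Mitochondrial ribosomal proteins, which are made in the cytosol for translation inside the organelle, went the opposite way from cytosolic ribosome assembly in the same arrays. 41 of 52 were lower and 0 higher, with a median of -0.51. Among the largest falls was that of Mrpl39, which read 3.87, 3.88 and 4.09 on WT 1 to 3 and 2.69, 2.94 and 3.13 on MI 1 to 3 and fell by 1.03 ± 0.14 (adjusted p = 0.00039). The list's median deviation was -0.7, -0.4 and -0.45 on MI 1 to 3.

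Genes of respiration and of fuel oxidation were lower. In complex I, 28 of 36 subunits were lower and 0 higher (median -0.48), and in complexes III to V 16 of 28 and 0. These counts depend on single arrays: for complex I they were 16 without WT 1, 9 without WT 2, 9 without MI 1 and 17 without MI 3, and for complexes III to V 9, 6, 5 and 8. Ndufa9, of complex I, fell by 0.72 ± 0.13 (adjusted p = 0.00164). Of 29 citrate cycle and pyruvate genes 21 were lower and 0 higher. Dlat, a subunit of pyruvate dehydrogenase, read 4.9, 4.91 and 4.8 on WT 1 to 3 and 3.4, 4.02 and 3.83 on MI 1 to 3 and fell by 1.12 ± 0.19 (adjusted p = 0.0012), and Pdp1, the phosphatase that activates that enzyme, fell by 1.35 ± 0.21 (adjusted p = 0.000819).

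Fatty acid genes fell in 25 of 39 cases and rose in 3. Ehhadh, of peroxisomal oxidation, read 0.08, 0.36 and -0.04 on WT 1 to 3 and -2.01, -1.06 and -1.05 on MI 1 to 3 and fell by 1.51 ± 0.27 (adjusted p = 0.00142), and Cpt1b, which admits fatty acids to mitochondria, fell by 0.7 ± 0.19 (adjusted p = 0.0113). Angptl4, Plin2 and Pdk4 rose, Pdk4 losing its call without WT 1. Angptl4, an inhibitor of lipoprotein lipase, read 1.58, 2.95 and 1.1 on WT 1 to 3 and 6.54, 5.73 and 6.0 on MI 1 to 3 and rose by 4.22 ± 0.46 (adjusted p = 0.000165), and Plin2, a coat protein of lipid droplets, rose by 1.7 ± 0.21 (adjusted p = 0.000269). Branched-chain amino acid and ketone breakdown was lower in 21 of 24 genes, and 2 were not called; the one that rose was the cytosolic transaminase Bcat1, which read -2.03, -2.34 and -2.03 on WT 1 to 3 and 1.5, 0.87 and 0.91 on MI 1 to 3 and rose by 3.23 ± 0.41 (adjusted p = 0.000311).

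Genes of glucose use moved both ways. 9 of 32 genes were higher (28.1%) and 11 lower (34.4%), against 18.6% and 29.3% over all genes. The basal glucose transporter Slc2a1 read 2.4, 2.18 and 2.2 on WT 1 to 3 and 5.32, 4.5 and 4.28 on MI 1 to 3 and rose by 2.43 ± 0.25 (adjusted p = 0.000116), and the insulin-responsive Slc2a4 read 7.14, 7.15 and 7.16 on WT 1 to 3 and 5.16, 5.97 and 5.9 on MI 1 to 3 and fell by 1.47 ± 0.27 (adjusted p = 0.00179). Neither pair of groups overlapped. Slc16a3, which exports lactate, read -1.31, -1.35 and -1.42 on WT 1 to 3 and 5.15, 4.06 and 3.53 on MI 1 to 3 and rose by 5.61 ± 0.39 (adjusted p = 2.76e-05). Nmrk2, the muscle nicotinamide riboside kinase that makes NAD, read 0.85, 0.14 and 0.33 on WT 1 to 3 and 7.61, 7.34 and 5.6 on MI 1 to 3 and rose by 6.41 ± 0.52 (adjusted p = 4.74e-05), with MI 3 lowest of the infarcted hearts. Ckm, muscle creatine kinase, fell by 1.07 ± 0.19 (adjusted p = 0.00142).

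**Figure D5:**
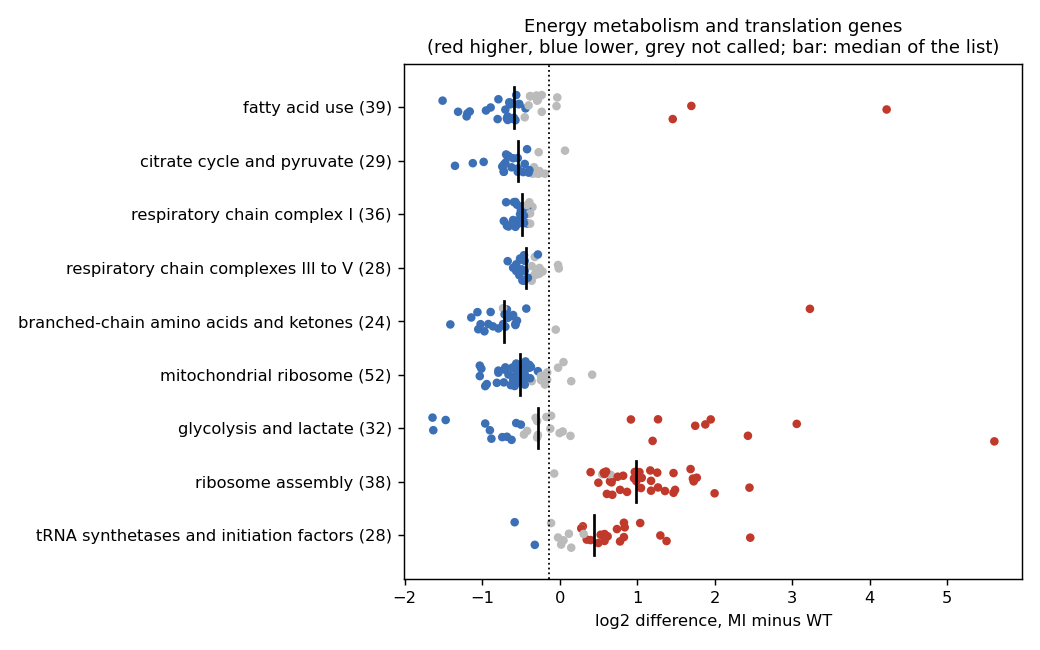
Each point is a tested gene of the list named on the y axis, with the number tested in brackets, placed by its log2 difference, MI minus WT (x axis); red is called higher, blue called lower and grey not called, black bars are list medians and the dotted line is the median over all genes, -0.14. The ribosome assembly list has a median of 0.98 and the mitochondrial ribosome list one of -0.51.

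Lists of cardiac genes split between a raised stress list and lowered functional ones. Which cells the RNA of these lists came from was not tested. 18 of 25 cardiac stress genes were higher and 1 lower, with a median of 2.07. Gdf15, a stress-secreted cytokine, read -1.42, -1.79 and -0.81 on WT 1 to 3 and 4.21, 2.89 and 3.27 on MI 1 to 3 and rose by 4.8 ± 0.47 (adjusted p = 9.78e-05). Uck2, a uridine-cytidine kinase, read 3.3, 3.04 and 3.28 on WT 1 to 3 and 7.2, 7.08 and 6.24 on MI 1 to 3 and rose by 3.63 ± 0.26 (adjusted p = 3.04e-05). The natriuretic peptide genes Nppa and Nppb rose by 2.51 ± 0.39 (adjusted p = 0.000737) and 1.15 ± 0.14 (adjusted p = 0.000264), both well separated from WT. Acta1, the skeletal actin of stressed myocardium, differed by 0.83 and was not called.

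Ion channels fell in 21 of 32 genes with 1 higher, and the median was -0.97. Kcnd2, a pore subunit of the transient outward potassium current, read 2.14, 2.77 and 2.15 on WT 1 to 3 and -0.06, 0.65 and 0.77 on MI 1 to 3 and fell by 1.9 ± 0.23 (adjusted p = 0.000272). Kcnk3, a background potassium channel, read 4.23, 4.23 and 4.22 on WT 1 to 3 and 2.05, 2.88 and 2.95 on MI 1 to 3 and fell by 1.6 ± 0.24 (adjusted p = 0.000617), and Scn4b, a sodium channel beta subunit, fell by 1.69 ± 0.36 (adjusted p = 0.00362). MI 1 was lowest for each.

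Calcium handling genes were lower in 14 of 24 cases (9 without WT 2). Pln, the inhibitor of the sarcoplasmic calcium pump, read 7.15, 7.17 and 7.12 on WT 1 to 3 and 5.21, 6.08 and 6.04 on MI 1 to 3 and fell by 1.37 ± 0.23 (adjusted p = 0.00108), and Jph2, which holds the calcium release units together, fell by 1.05 ± 0.22 (adjusted p = 0.00353). The pump itself, Atp2a2, differed by -0.38 and was not called. Of contractile genes 13 of 30 were lower (7 without WT 2 or without MI 1, 8 without MI 3) and 2 higher.

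Further lists moved to different extents. Of 23 hypoxia genes 9 were higher (39.1%) and 3 lower (13%), against 18.6% and 29.3% over all genes. Car9 held the largest rise among those called. The largest called fall was in Epas1, the hypoxia-inducible factor of endothelium, by 0.76 ± 0.18 (adjusted p = 0.00595). Of 28 sterol genes 6 went each way; Fdft1, squalene synthase, read 2.88, 3.26 and 3.14 on WT 1 to 3 and 1.79, 1.89 and 2.08 on MI 1 to 3 and fell by 1.17 ± 0.19 (adjusted p = 0.000991). Of 35 proteasome genes 8 were higher and 2 lower, the former ranging from 3 to 13 over the settings tried. Muscle ubiquitin ligase and autophagy genes were lower in 13 of 24 cases and higher in 2.

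At the intercalated disc Xirp2, an actin-binding repeat protein, rose by 1.99 ± 0.27 (adjusted p = 0.000459) and Tmem65, a disc protein that steadies connexin 43, fell by 1.57 ± 0.18 (adjusted p = 0.000196); over the list 4 of 20 were higher and 7 lower, shares near the background. Of 24 adrenergic and cyclic AMP genes 5 were higher and 11 lower. Akap5, an anchor of protein kinase A at beta receptors, read 0.67, 0.53 and 0.54 on WT 1 to 3 and -2.88, -1.99 and -2.15 on MI 1 to 3 and fell by 2.92 ± 0.43 (adjusted p = 0.000623), while Grk5, a kinase that desensitises these receptors, rose by 1.36 ± 0.3 (adjusted p = 0.00417). Of 31 cardiac transcription factors 20 were lower. The falls included regulators of metabolism: Rxrg, a retinoid X receptor, read 4.71, 4.65 and 4.67 on WT 1 to 3 and 2.29, 3.11 and 3.32 on MI 1 to 3 and fell by 1.77 ± 0.24 (adjusted p = 0.000442), Klf15 fell by 1.41 ± 0.33 (adjusted p = 0.00591) and Ppargc1a, the coactivator of mitochondrial genes, fell by 1.3 ± 0.28 (adjusted p = 0.00413). Gata4 and Nkx2-5, which specify the lineage, differed by -0.27 and -0.25 and were not called. Asb2, a ubiquitin ligase subunit of muscle, fell by 1.77 ± 0.28 (adjusted p = 0.000883).

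Of 20 circadian clock genes, 4 were higher (1 without MI 1) and 7 lower, shares near the background. The largest fall was in the output gene Dbp, which read 5.83, 5.53 and 5.93 on WT 1 to 3 and 2.45, 2.92 and 3.06 on MI 1 to 3 and fell by 2.95 ± 0.34 (adjusted p = 0.000198); Hlf, of the same family of D-box factors, fell by 2.19 ± 0.34 (adjusted p = 0.000707). Per3 read 1.3, 1.22 and 1.64 on WT 1 to 3 and -1.39, -1.04 and -0.67 on MI 1 to 3 and fell by 2.42 ± 0.32 (adjusted p = 0.000382). Per1, the largest rise of the list, read 2.33, 1.84 and 2.58 on WT 1 to 3 and 4.36, 3.44 and 2.95 on MI 1 to 3 and rose by 1.34 ± 0.5 (adjusted p = 0.0483), a call lost when any array but MI 3 was left out. Nfil3, which opposes DBP at the same sites, rose by 1.27 ± 0.27 (adjusted p = 0.00363). The core clock gene Arntl differed by 0.36 and was not called. The hour of sampling is not given in the sources used here.

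Of cell cycle genes 14 of 37 were lower (9 without MI 2) and 6 higher. Mki67, a marker of dividing cells, read 0.79, -0.05 and 0.42 on WT 1 to 3 and -1.09, -1.61 and -0.49 on MI 1 to 3 and fell by 1.45 ± 0.3 (adjusted p = 0.00346), with WT 1 highest. The licensing gene Mcm6 rose by 0.93 ± 0.19 (adjusted p = 0.00278). Of growth factors 13 of 43 were higher and 13 lower. Met, the receptor of hepatocyte growth factor, read -2.86, -3.24 and -3.24 on WT 1 to 3 and 0.19, -0.43 and -0.91 on MI 1 to 3 and rose by 2.73 ± 0.31 (adjusted p = 0.000196), Pgf, placental growth factor, rose by 2.63 ± 0.57 (adjusted p = 0.00414), and Bmp7 fell by 1.47 ± 0.24 (adjusted p = 0.00105). In the nerve list, Dbh, which makes noradrenaline in sympathetic nerve endings, read 2.21, 2.28 and 2.57 on WT 1 to 3 and 0.33, -0.05 and 0.41 on MI 1 to 3 and fell by 2.13 ± 0.23 (adjusted p = 0.000144). Sprr1a, a small proline-rich protein of regrowing axons and stressed myocytes, read -3.2, -5.52 and -5.01 on WT 1 to 3 and 3.43, 3.32 and 3.24 on MI 1 to 3. WT 2 and WT 3 were not above background, and with those at the lowest signal above background on their arrays the difference was 6.86 (limma adjusted p = 0.000435 on the values as read). Of the named long non-coding RNAs Mhrt, transcribed from a myosin heavy chain locus of the heart, read 5.01, 5.09 and 4.95 on WT 1 to 3 and 2.75, 3.43 and 2.96 on MI 1 to 3 and fell by 1.98 ± 0.31 (adjusted p = 0.000806), and Neat1, the scaffold of paraspeckles, rose by 1.1 ± 0.21 (adjusted p = 0.00203).

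Genes of tissue that a dissected heart may carry differed between arrays of the same group. The atrial list summed to between 66.6 and 68.9 on the WT arrays and to 700, 318 and 247 on MI 1 to 3; the list holds Nppa, which infarcted ventricle is also known to make. The atrial light chains, however, were high on MI 1 alone: Myl7 read -0.91, -0.97 and -4.93 on WT 1 to 3 and 6.68, -4.47 and -4.02 on MI 1 to 3, and Myl4 read 1.39, 1.33 and 1.12 on WT 1 to 3 and 7.15, 0.66 and 0.83 on MI 1 to 3. Neither was called, 2 of 13 atrial genes were, and the list's median of 0.95 became -0.54 without MI 1. Bmp10, also on the atrial list, was not above background on any array, MI 1 included. Erythroid genes summed to 2460 on WT 1, to 1680 and 1620 on WT 2 and WT 3, and to between 1070 and 1350 on the MI arrays; 7 of 11 were lower, and 2 to 4 of them after leaving out any 1 of WT 1 and MI 1 to 3. The lung, thymus and liver list summed to between 2.79 and 3.52 on the WT arrays and to 16.3, 14.4 and 4.13 on MI 1 to 3. Alb, the liver protein albumin, read -5.56, -4.78 and -5.97 on WT 1 to 3 and 2.53, 1.88 and -4.17 on MI 1 to 3, and 6 of the 17 genes of that list, including the lung markers Sftpa1 and Sftpc, were not above background on any array. The part of atrial, erythroid and liver RNA in the other results was not tested.

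Outside the lists, the rule for named genes picked a few more. Rab44 and Sh2d5 were below background in every WT heart and rose at least 75.2-fold (adjusted p = 3.92e-05) and at least 70.9-fold (adjusted p = 3.43e-05). Rnd1, a small GTP-binding protein, rose by 3.88 ± 0.22 (adjusted p = 1.14e-05). Among the largest falls were Cenpf, a kinetochore protein, which read 2.32, 2.47 and 2.91 on WT 1 to 3 and -1.2, -0.68 and 0.24 on MI 1 to 3, and Lingo3, which read 1.28, 1.34 and 1.22 on WT 1 to 3 and -2.67, -1.52 and -1.07 on MI 1 to 3; the groups did not overlap for either, and the genes fell by 3.11 ± 0.41 (adjusted p = 0.000393) and fell by 3.03 ± 0.36 (adjusted p = 0.000257). Frmpd3 and Slc51a were not above background in any infarcted heart and fell at least 6.87-fold (adjusted p = 7.46e-05) and at least 6.16-fold (adjusted p = 0.000121).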

How the data were processed

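Per the labels, total heart RNA was amplified and labelled with Cy3 by the authors. Spot intensity was background-subtracted with Agilent Feature Extraction 12.0.3.1, per the file headers, and is deposited on a linear scale with no normalization across arrays. The authors also deposited a table of log2 values, taken here as an alternative, whose normalization the sources used here do not state. Limma is named, without its version or purpose, per the submitters' processing notes.

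Each array's intensity was taken to log2 and its 75th percentile over non-control probes subtracted; outlier spots were left out, and 49 probes were lost. Probe names were updated from RefSeq for 32994 probes by accession, 10224 by symbol and 520 by synonym, and 12867 kept the name in the files. The probe with the highest mean over 12 arrays stood for a gene, and 19761 of 36981 genes were tested, those that every array of some group showed well above background. A group-means model over all 12 arrays was fitted with limma 3.58.1 in R 4.3.3 (statmod 1.5.0, the data.table package, version 1.17.8), with Benjamini-Hochberg adjustment at 0.05. A bound sets the bright group's mean against, on each dim array, the higher of the probe's own signal and the lowest signal well above background. The number of arrays limits the precision.

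Members and the 60 lists were chosen with earlier results of these data known. Named genes were the 15 highest and 15 lowest changes, the 10 largest bounds each way, list leads and extremes, and the 10 most and least precise and 10 widest over MI; others named were chosen after their values were seen. Alternatives covered normalization, background, filter, probe choice, arrays fitted, slide, row, replicate block and left-out arrays. The fit was tested on simulated data in which few genes changed and a gene's spread was the same in every group. That test therefore does not cover the many changed genes and the wider spread among MI arrays seen here. Some genes the rule names are not reported here.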

Additional observations from a re-analysis of the deposited data

How the results depend on the processing

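Under the alternatives, between 7235 (without MI 1) and 10424 genes were called (the latter without the third infarcted transgenic heart in the fit; left-out arrays still entered probe choice and filter), against 9464, and the share of them that was higher stayed between 38.1% and 44.3%. Leaving out 1 array at a time gave 7235 to 10424 genes, 2882 to 4072 of them higher and 4353 to 6352 lower. Between 30 and 35 of the 60 lists had more genes higher than lower, against 32. No gene called in both changed direction, except 15 with the mean of a gene's probes. Deviations of same-numbered arrays correlated at 0.0666, 0.0725 and 0.0844, and those of differently numbered arrays at between -0.06 and -0.01. Correlations this weak, with 3 arrays a group, do not settle whether the replicate numbers pair the samples. The replicate block called 8507 genes, 7811 of them among the 9464. With slide and row as a block the calls of Apln, Aplnr and Pdk4 were lost. Of 80 list counts of 4 or more, 26 moved by over 1.5 times under some alternative, and 10 by over 2 times: circadian higher (down to 1, against 4), interferon-stimulated lower (2, against 8), lung, thymus and liver higher (1, against 4), erythroid lower (2, against 7), complexes III to V lower (5, against 16), complex I lower (9, against 28), neutrophil higher (8, against 23) and interleukins higher (8, against 17) with genes above background on all 6 arrays alone, proteasome higher (3, and up to 13, against 8) and resident macrophage higher (3, against 7). Reversals among named genes were few: Col1a1 stood at -0.16 with slide and row as a block, and between -0.04 (without WT 1) and 0.13 (without MI 1) with 1 array left out, Myl4 between -0.54 (without MI 1) and 2.71 (without MI 2), and Myl7 between -1.97 (without MI 1) and 3.6 (without MI 2); the cause was not tested except where a single array was removed. Genes near background, which include many of the largest rises, have only bounds, and 3 arrays a group limit all errors.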

Other observations

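The balance of directions differed by kind of transcript. Of 945 long non-coding RNA genes tested, 82 were higher and 366 lower after infarction, while of 13947 protein-coding genes 2777 were higher and 4253 lower. Of 10 small nucleolar RNA genes 7 were higher and 1 lower. These counts were looked at after the values were known and no test of the difference was made. The list of named long non-coding RNAs did not share the downward balance. In it 8 of 22 tested were higher (36.4%) and 4 lower (18.2%).

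Probes of the same gene did not always move alike. For 161 genes, probes were called in opposite directions, and for 7 by at least 1 log2 unit each way. Pgd, of the pentose phosphate pathway, had probes at -2.72 and 1.18, and Tiam2, an exchange factor for Rac, at -1.31 and 2.05.

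Liver genes spread widely among infarcted hearts. On MI 1 to 3 Serpina1a, a liver protease inhibitor, read 1.91, 1.73 and -3.81, and Alb, albumin, read 2.53, 1.88 and -4.17. Both were high on MI 1 and MI 2 and lower on MI 3.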
